A study of Homo sapiens with 18 samples.

Results

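THESC is an established human cell line of endometrial stromal cells, which form the connective tissue of the lining of the uterus, immortalised with telomerase. The comparison set THESC cells carrying a promoter guide RNA (promoter cells, labelled PGRB-dominant) against THESC cells carrying guides named U1U2 (U1U2 cells, labelled PGRA/B-equivalent). Both lines were engineered with CRISPR so that PGR, the progesterone receptor gene, was activated with its isoforms at different ratios, and both were compared after 72 h with the synthetic progestin medroxyprogesterone acetate (MPA) at 1 µM. Each group held 3 poly(A) RNA-seq libraries, so 6 of the 18 libraries of the series were compared. All 15558 genes that passed the count filter, of 78724 in the deposited table, were examined, and no measured value chose the members. The other 12 libraries were the same 2 lines in vehicle (0.01% ethanol) and NT cells, which carry a non-targeting guide and are labelled wild type, in vehicle and in MPA. Each line is a single engineered line, and whether it is 1 clone or a pool is not given in the sources used here. All groups, NT cells included, spent 24 h in medium with 2% serum and were then treated in charcoal-stripped serum. Nothing in the labels says whether replicates came from separate cultures. The p-values therefore measure the spread between these libraries alone, and that spread may be technical.

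The progesterone receptor is a ligand-activated transcription factor made in a long form, PGRB, and a shorter form, PGRA, from 1 gene. PGRB carries an additional activating region at its amino terminus and is generally the stronger activator, while PGRA can restrain other steroid receptors. In endometrial stroma, progestin-bound receptor raises genes such as FKBP5, ZBTB16 and FOXO1 and drives decidualisation, the differentiation that prepares the lining for implantation. MPA also binds the glucocorticoid receptor.

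PGR itself (ENSG00000082175) stood at 291, 264 and 226 CPM (the counts-per-million unit, with TMM library factors) in the 3 U1U2 libraries and at 264, 303 and 280 CPM in the 3 promoter libraries under MPA. The ranges overlapped, and the log2 fold change of promoter over U1U2 cells was 0.12 ± 0.12 (SE; 95% interval -0.14 to 0.37; not called). Counts summed per gene cannot separate PGRA from PGRB, so the isoform ratio named by the labels was not measured here. In vehicle PGR was 596 ± 72.5 CPM (SD, n = 3) in U1U2 cells and 434 ± 40.1 in promoter cells. That difference of -0.46 ± 0.12 was not called (edgeR adjusted p = 0.107). The labels put all 18 libraries in 1 batch, so no value could be repeated within batches.

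Total counts ran from 22.2 to 28.8 M in U1U2 MPA libraries and from 22.5 to 26.6 M in promoter MPA libraries (11.9 to 33.4 M over all 18). Mitochondrial genes took 1.80% to 2.19% and 2.01% to 2.15% of them. The 21 stromal markers summed to 17794 to 19225 CPM in U1U2 and 17544 to 19281 CPM in promoter libraries, with TCF21 at 0 in all 6. The 14 epithelial markers summed to 21.5 to 44.2 CPM in U1U2 and 29 to 38.2 CPM in promoter libraries, with CLDN3 at 0. The 10 endothelial markers summed to 1.15 to 1.87 and 1.44 to 2.15 CPM, with ERG and CLDN5 at 0 and PECAM1 at 0 or 1 count per library. The 12 leukocyte markers summed to 1.94 to 2.67 and 2.49 to 2.85 CPM, with CD3E, TYROBP, CD2 and HLA-DRA at 0. No pair of replicates looked like 1 library deposited again, since chi-square divided by its degrees of freedom was 16.5 to 33.2 among U1U2 and 1.89 to 7.18 among promoter MPA libraries.

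Few genes separated the lines under MPA. The edgeR quasi-likelihood test called 51 genes (0.328% of those tested) at a Benjamini-Hochberg adjusted p under 0.05, 30 higher (0.193%) and 21 lower (0.135%) in promoter cells, and 16 of them differed by over 2-fold. The genes higher in promoter cells included FKBP5, ZBTB16 and FOXO1, which progestin is known to induce, and RORB, APCDD1 and the glucose transporter gene SLC2A14. The genes lower in promoter cells included the receptor genes GPRC5A, KIT, ADRA2A, HTR2B and SSTR1. They also included the ligand genes FGF9, WNT2 and SEMA3A, and LAMA4 and PDE1A. Other receptor genes, such as FLT1, NRP2 and CNR1, were called higher. Receptor and ligand genes were not counted over all tested genes. Over all tested genes the median log2 fold change was -0.02 and 90% of values lay between -0.41 and 0.33. At an unadjusted p under 0.05 there were 658 genes (4.23%). In all 51 called genes the libraries of the groups did not overlap, which held for 1500 of all tested genes (9.64%). In these bulk libraries a change in the RNA of every cell and a change in the share of cells that express a gene cannot be told apart.

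**Figure D1:**
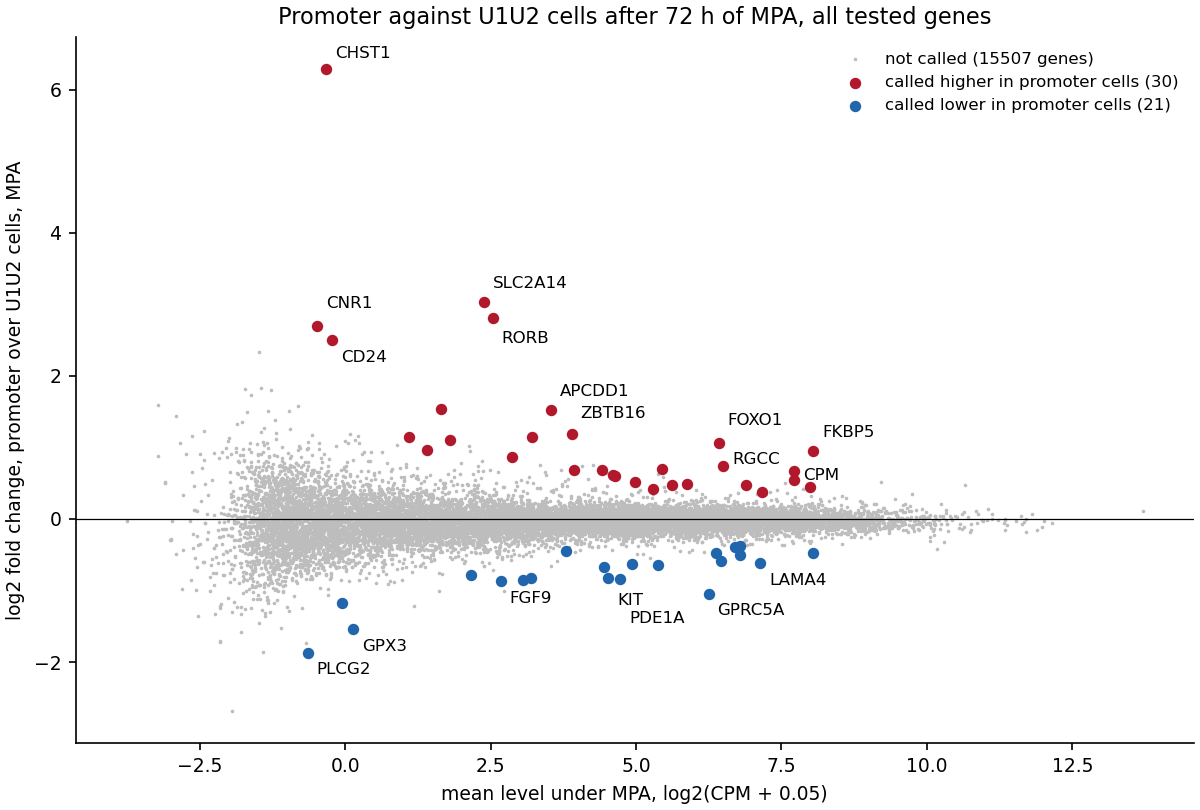
Each point is 1 of the tested genes; the horizontal axis is its mean level over the 6 MPA libraries as log2(CPM + 0.05) and the vertical axis the log2 fold change of promoter over U1U2 cells. The 30 genes called higher and 21 called lower are coloured; CHST1, SLC2A14 and RORB lie at the top, PLCG2 and GPX3 at the bottom.

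The calls were not equally firm. When each of the 6 compared libraries was left out in turn, 15 of the 51 genes were called in all 6 fits, and 10 in none. The 15 were RORB, CHST1, SLC2A14, FKBP5, APCDD1, FOXO1, RGCC, CPM, HLA-DMA, ENSG00000250126, GPRC5A, LAMA4, PDE1A, KIT and WNT2. All 51 kept their direction in every fit. For each other gene named as called, the fits that lost it are given beside it.

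FKBP5 (ENSG00000096060; GRCh38 chromosome 6, 35573585 to 35728583) encodes an HSP90 co-chaperone that lowers the hormone affinity of steroid receptors and is induced by them. Its level was 176, 180 and 184 CPM in U1U2 MPA libraries and 354, 334 and 356 CPM in promoter MPA libraries. Every promoter library lay far above every U1U2 library, with a log2 fold change of 0.95 ± 0.09 (adjusted p = 2.15e-05). In vehicle the means were 16.4 and 20.8 CPM (0.34 ± 0.10, adjusted p = 0.146), and NT cells reached 120 ± 3.93 CPM (SD, n = 3) under MPA. ZBTB16 (ENSG00000109906), a zinc finger transcription factor, had no count in the 3 U1U2 vehicle libraries and 1 count in the 3 promoter vehicle libraries. Under MPA it stood at 8.48, 8.51 and 10.2 CPM in U1U2 cells, at least 253-fold above a floor of 3 counts over the vehicle group. Promoter MPA libraries held 22.5, 20.2 and 19.1 CPM, again with no overlap (1.18 ± 0.17, adjusted p = 0.00889). The ZBTB16 call was lost without U1U2 MPA replicate 1 or promoter MPA replicate 2 (adjusted p up to 0.059). These were the only 2 called of 19 tested genes known as progestin or glucocorticoid targets, both higher; the list's median log2 fold change was 0.05, against -0.02 over all tested genes. DUSP1, a phosphatase of MAP kinases, stood at -0.22 ± 0.09 and KLF15, a transcription factor, at 0.13 ± 0.20, neither called.

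Most of the promoter window of FKBP5 is shown because this gene carried the clearest difference among known progestin targets. Windows are 300 bases long, 250 before and 50 after the annotated start, and the stretch printed ends with the match. It is taken from RefSeq (GRCh38.p14, chr6:35728578-35728833, minus strand, 256 bases, read 5′ to 3′). Capitals mark the reverse complement of TGTTCT, the hexamer that progesterone and glucocorticoid receptors recognise as 1 arm of their palindrome.
FKBP5: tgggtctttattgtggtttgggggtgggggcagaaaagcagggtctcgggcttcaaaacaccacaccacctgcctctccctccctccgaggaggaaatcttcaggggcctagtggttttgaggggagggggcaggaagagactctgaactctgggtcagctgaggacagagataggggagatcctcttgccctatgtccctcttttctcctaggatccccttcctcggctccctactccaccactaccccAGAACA
The match begins at base 251 of the window, at the annotated start. Windows were found for 32 of the 51 called genes, and the hexamer was searched on both strands. It lay in 2 of 19 windows of genes called higher (FKBP5 and TCAF2), in 1 of 13 of genes called lower (GPNMB), and in 9.07% of the 11005 tested genes with a window. A relaxed palindrome, GNACANNNTGTNC, in which N is any base and which reads the same on both strands, lay in 0.209% of all windows. It lay in none of the 32 windows of called genes, too few for its absence to be a result. In NT cells it lay in 4 of 291 windows of genes MPA raised (1.37%) and in 5 of 397 of genes it lowered (1.26%). The FOXO heptamer TGTTTAC lay in 2.32% of all windows, in none of the 19 genes called higher and in GFRA1 among those called lower. A match is a description of the letters, not of binding, and these windows hold no distal elements.

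FOXO1 (ENSG00000150907; chromosome 13, 40469953 to 40666597), a forkhead factor of decidualising stroma, was 59.0, 59.8 and 47.7 CPM in U1U2 and 110, 121 and 116 CPM in promoter MPA libraries. Every promoter library lay above every U1U2 library (1.06 ± 0.11, adjusted p = 9.96e-05). In vehicle the lines stood at 15.8 and 17.4 CPM (0.14 ± 0.12, not called). RORB (ENSG00000198963; chromosome 9, 74497365 to 74693177), an orphan nuclear receptor of the ROR family, was 1.45, 1.31 and 1.53 CPM in U1U2 and 11.4, 9.97 and 8.76 CPM in promoter MPA libraries (2.80 ± 0.18, adjusted p = 2.63e-07). It had 2 counts in U1U2 and 6 in promoter vehicle libraries, and 7 counts in NT cells under MPA, so the gene was nearly silent except in both activated lines with ligand. HEY1, a transcriptional effector of Notch, was higher as well (0.96 ± 0.20, adjusted p = 0.0436), but was called only when promoter MPA replicate 1 was the library left out, with adjusted p up to 0.328.

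Of 23 tested decidual markers, FOXO1 and CNR1 were called higher and none lower; the list's median was -0.03. CNR1, the cannabinoid receptor CB1, had 2, 2 and 9 counts in U1U2 and 38, 33 and 18 counts in promoter MPA libraries. The ratio of their shares was 6.69, with a 95% counting interval of 3.72 to 13.1. No count fell in the 6 vehicle libraries of these lines, which puts the promoter level under MPA at least 32.0-fold and the U1U2 level at least 4.93-fold above a floor of 3 counts over the group. The CNR1 call (adjusted p = 0.0336) was made in 1 of 6 leave-one-out fits, without U1U2 MPA replicate 3 (adjusted p up to 0.191), and not by DESeq2. HAND2, a transcription factor of endometrial stroma, stood at 0.62 ± 0.19 (adjusted p = 0.457) and HSD11B1, which regenerates cortisol, at 0.76 ± 0.17 (adjusted p = 0.0862), neither called. The decidual hormone genes were near their floor: PRL had 6 and 12 counts in U1U2 and promoter MPA libraries (ratio 1.95, 95% counting interval 0.679 to 6.35) and IGFBP1 5 and 10. Counting intervals cover counting error only. Among 23 tested FOXO targets the only call was catalase, CAT, which was lower in promoter cells (-0.39 ± 0.07, adjusted p = 0.0238). It was lost without U1U2 MPA replicates 1 or 3 or promoter MPA replicates 2 or 3 (adjusted p up to 0.216). The list's median was -0.04.

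SLC2A14 (ENSG00000173262; chromosome 12, 7812512 to 7891148), the glucose transporter GLUT14, was 1.22, 1.13 and 1.06 CPM in U1U2 and 9.68, 8.45 and 9.71 CPM in promoter MPA libraries. It was the most strongly separated transporter (3.03 ± 0.28, adjusted p = 2.15e-05), and vehicle libraries of both lines held at most 0.251 CPM. Its neighbour SLC2A3, the closely similar transporter GLUT3, was 116, 131 and 127 against 159, 160 and 165 CPM (0.37 ± 0.06, adjusted p = 0.0135). The 2 genes are near-identical in sequence, so how the counting divided their reads is uncertain. SLC2A3 was called only without U1U2 MPA replicate 2 or 3 (adjusted p up to 0.114 in the others); it was the only call among 31 glycolytic and hypoxia genes (median -0.05). SLC7A2, a transporter of cationic amino acids, was 166, 168 and 151 against 238, 261 and 276 CPM (0.68 ± 0.11, adjusted p = 0.00768). It was lost without promoter MPA replicate 2 or 3 (adjusted p up to 0.0729).

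CHST1 (ENSG00000175264; chromosome 11, 45648877 to 45665622), a sulfotransferase of keratan sulfate, had 0, 1 and 0 counts in U1U2 and 43, 35 and 33 counts in promoter MPA libraries. The ratio of shares was 109, with a 95% counting interval of 19.1 to 4324 (adjusted p = 1.16e-06). The promoter line held it without ligand too, at 3.32 ± 0.547 CPM (SD, n = 3) in vehicle against 0.0622 ± 0.0301 in U1U2 cells. CD24, a small cell-surface glycoprotein, followed the same layout with 3, 12 and 2 counts in U1U2 and 37, 32 and 33 in promoter MPA libraries (ratio 5.86, 95% counting interval 3.49 to 10.5; adjusted p = 0.0141). Its vehicle difference was 3.56 ± 0.33 on the log2 scale. CD24 was called only without U1U2 MPA replicate 2 (adjusted p up to 0.089 in the other 5 fits), and it has near-identical copies elsewhere in the genome. HLA-DMA, which loads peptides onto class II molecules, was 2.16, 2.13 and 2.25 against 5.35, 4.30 and 4.43 CPM (1.10 ± 0.16, adjusted p = 0.00286), with a vehicle difference of 1.05 ± 0.15. HLA-DMA was not called when only the compared groups were fitted (adjusted p = 0.0656).

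Among WNT ligands, receptors and antagonists, 1 of 26 tested genes was called higher and 1 lower, with a list median of -0.06. APCDD1 (ENSG00000154856), a membrane inhibitor of WNT signalling, was 5.81, 5.84 and 6.31 CPM in U1U2 and 18.1, 17.0 and 16.6 CPM in promoter MPA libraries (1.52 ± 0.15, adjusted p = 2.62e-05). WNT2, a secreted WNT ligand of stroma, was 36.7, 35.8 and 38.6 against 24.7, 21.9 and 25 CPM (-0.64 ± 0.09, adjusted p = 0.00124). Every promoter library thus lay above every U1U2 library for APCDD1 and below for WNT2. These were 2 genes of a list in which 9 of 26 had a positive difference under MPA. In vehicle WNT2 was also called lower in promoter cells (-0.53 ± 0.08, edgeR adjusted p = 0.00503). WNT2 was not called when only the 2 compared groups were fitted (adjusted p = 0.0626). WNT2B, another ligand, stood at -0.54 ± 0.15 (adjusted p = 0.287; in vehicle -0.71 ± 0.14, adjusted p = 0.0238) and AXIN2, a feedback target of the pathway, at -0.42 ± 0.16 (adjusted p = 0.851).

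A list of the FGF and EGF families and their feedback also held KIT, a receptor of neither family. Of its 29 tested genes, FGF9 and KIT were called lower and none higher (median -0.03). KIT (ENSG00000157404), the receptor of stem cell factor, was 32.8, 28.2 and 27.0 against 17.5, 16 and 16.3 CPM (-0.82 ± 0.11, adjusted p = 0.00157). FGF9, a secreted fibroblast growth factor, was 7.64, 8.24 and 8.79 against 4.44, 4.95 and 4.11 CPM (-0.87 ± 0.16, adjusted p = 0.0196). The FGF9 call was lost in each of the 6 leave-one-out fits, at adjusted p between 0.058 and 0.142. GFRA1, the co-receptor of GDNF, was lower (-0.37 ± 0.07, adjusted p = 0.0291) and was lost in all 6 as well (adjusted p 0.0825 to 0.252).

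Of 27 tested angiogenic and vascular genes 2 were higher and 1 lower in promoter cells (median -0.05). FLT1, the VEGF receptor 1, was 93.6, 103 and 99.5 against 131, 139 and 142 CPM (0.48 ± 0.09, adjusted p = 0.018). NRP2, a co-receptor of semaphorins and VEGF, was 201, 216 and 232 against 305, 292 and 286 CPM (0.44 ± 0.08, adjusted p = 0.0151). SEMA3A, a secreted semaphorin, was 122, 138 and 127 against 89.4, 93.8 and 90.5 CPM (-0.50 ± 0.09, adjusted p = 0.0245). As in every called gene, the libraries of the groups did not overlap, and the calls were fragile. FLT1 was called only without U1U2 MPA replicate 2 or promoter MPA replicate 1 (adjusted p up to 0.122 otherwise), NRP2 only without U1U2 MPA replicate 3 (up to 0.107), and SEMA3A in none of the 6 fits (0.0611 to 0.187).

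The genes for 4 G protein-coupled receptors called lower in promoter cells are given together, while CNR1, of the same superfamily, was called higher; they were grouped after their values were seen, and receptors of this kind were not counted over all tested genes. GPRC5A (ENSG00000013588; chromosome 12, 12890782 to 12917937), an orphan receptor known to respond to retinoic acid, was 110, 89.5 and 107 CPM in U1U2 and 54.0, 47.7 and 46.8 CPM in promoter MPA libraries (-1.05 ± 0.12, adjusted p = 0.000173). ADRA2A, an alpha-2 adrenergic receptor, was 13.5, 8.65 and 9.99 against 6.67, 6.16 and 4.92 CPM (-0.85 ± 0.16, adjusted p = 0.0245). HTR2B, a serotonin receptor, was 57.3, 49.7 and 45.3 against 31.5, 31.4 and 34.5 CPM (-0.65 ± 0.12, adjusted p = 0.0228). SSTR1, a somatostatin receptor, was lower by the same test (-0.59 ± 0.12, adjusted p = 0.0336). GPRC5A alone of these 4 was called in every fit. ADRA2A was called only without U1U2 MPA replicate 2 or 3 (adjusted p up to 0.217 otherwise), HTR2B only without U1U2 MPA replicate 3 (up to 0.164) and SSTR1 only without U1U2 MPA replicate 2 (up to 0.265).

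PDE1A (ENSG00000115252; chromosome 2, 182140036 to 182523192), a calmodulin-dependent phosphodiesterase that degrades cyclic nucleotides, was 34.6, 34.0 and 33.4 CPM in U1U2 and 18.5, 21.1 and 17.5 CPM in promoter MPA libraries (-0.84 ± 0.11, adjusted p = 0.000659). Its level in NT cells was 37.5 ± 2.23 CPM (SD, n = 3) in vehicle and 36.1 ± 5.75 under MPA, so the promoter line stood apart from both other lines. The genes that follow are set beside PDE1A only after their values were seen, and genes of these kinds were not counted over all tested genes. The phospholipase genes PLCB4 (-0.47 ± 0.08, adjusted p = 0.0156) and PLCG2 (-1.87 ± 0.37, adjusted p = 0.0291; 70 against 19 counts) were lower. TRPC6, a calcium channel that lies beside PGR on chromosome 11, was 30.7, 26.5 and 23.2 against 17.2, 16.9 and 16.3 CPM (-0.67 ± 0.11, adjusted p = 0.00889). It was the only call among 9 tested neighbours of PGR (median -0.09). CAMK1G, a calmodulin-dependent kinase, was higher, at 5.86, 4.35 and 6.85 against 14.2, 11.5 and 12.2 CPM (1.15 ± 0.22, adjusted p = 0.0245). TRPC6 was lost without U1U2 MPA replicate 1 or promoter MPA replicates 2 or 3 (adjusted p up to 0.0961). PLCB4 and CAMK1G were called only without U1U2 MPA replicate 3 (adjusted p up to 0.171 and 0.182 otherwise), and PLCG2 only without U1U2 MPA replicate 2 (up to 0.233).

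Basement membrane chains went both ways. Of 43 tested laminins, proteoglycans and matrix glycoproteins 1 was higher and 1 lower (median -0.05), and of 24 tested collagen chains none was called (median -0.05; 0 at an unadjusted p under 0.05). LAMA4 (ENSG00000112769), the laminin alpha-4 chain, was 185, 159 and 166 CPM in U1U2 and 114, 112 and 107 CPM in promoter MPA libraries (-0.62 ± 0.08, adjusted p = 0.000521). LAMA2, the alpha-2 chain, was 40.2, 38.6 and 44.8 against 59.0, 56.6 and 56.4 CPM (0.48 ± 0.09, adjusted p = 0.0283). LAMA2 was called only without U1U2 MPA replicate 3 (adjusted p up to 0.197 otherwise). SPP1, the secreted phosphoprotein osteopontin, was 18.2, 18.6 and 21.9 against 28.4, 30.6 and 30.6 CPM (0.61 ± 0.12, adjusted p = 0.0407; called only without U1U2 MPA replicate 3, adjusted p up to 0.247 otherwise).

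Of 37 tested matrix proteases and their inhibitors the gene CPM was called higher and none lower (median -0.05). This gene (ENSG00000135678; chromosome 12, 68842197 to 68971570) encodes carboxypeptidase M, a membrane protease, and stood at 179, 175 and 161 of the same unit in U1U2 and 247, 250 and 253 in promoter MPA libraries (0.54 ± 0.07, adjusted p = 0.00108). In vehicle the lines differed by 0.07 ± 0.08. The collagenase MMP1 stood at -0.47 ± 0.11 (adjusted p = 0.149) and the plasminogen activator PLAT at 0.50 ± 0.12 (adjusted p = 0.108), neither called.

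RGCC (ENSG00000102760; chromosome 13, 41457559 to 41470882), a regulator of the cell cycle, was 71.8, 66.9 and 64.3 CPM in U1U2 and 107, 115 and 119 CPM in promoter MPA libraries (0.74 ± 0.09, adjusted p = 0.000276). The gap was as wide in vehicle (0.79 ± 0.09, adjusted p = 0.000308). It was the only call among 18 CDK inhibitors, D cyclins and growth arrest genes (median -0.05).

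**Figure D2:**
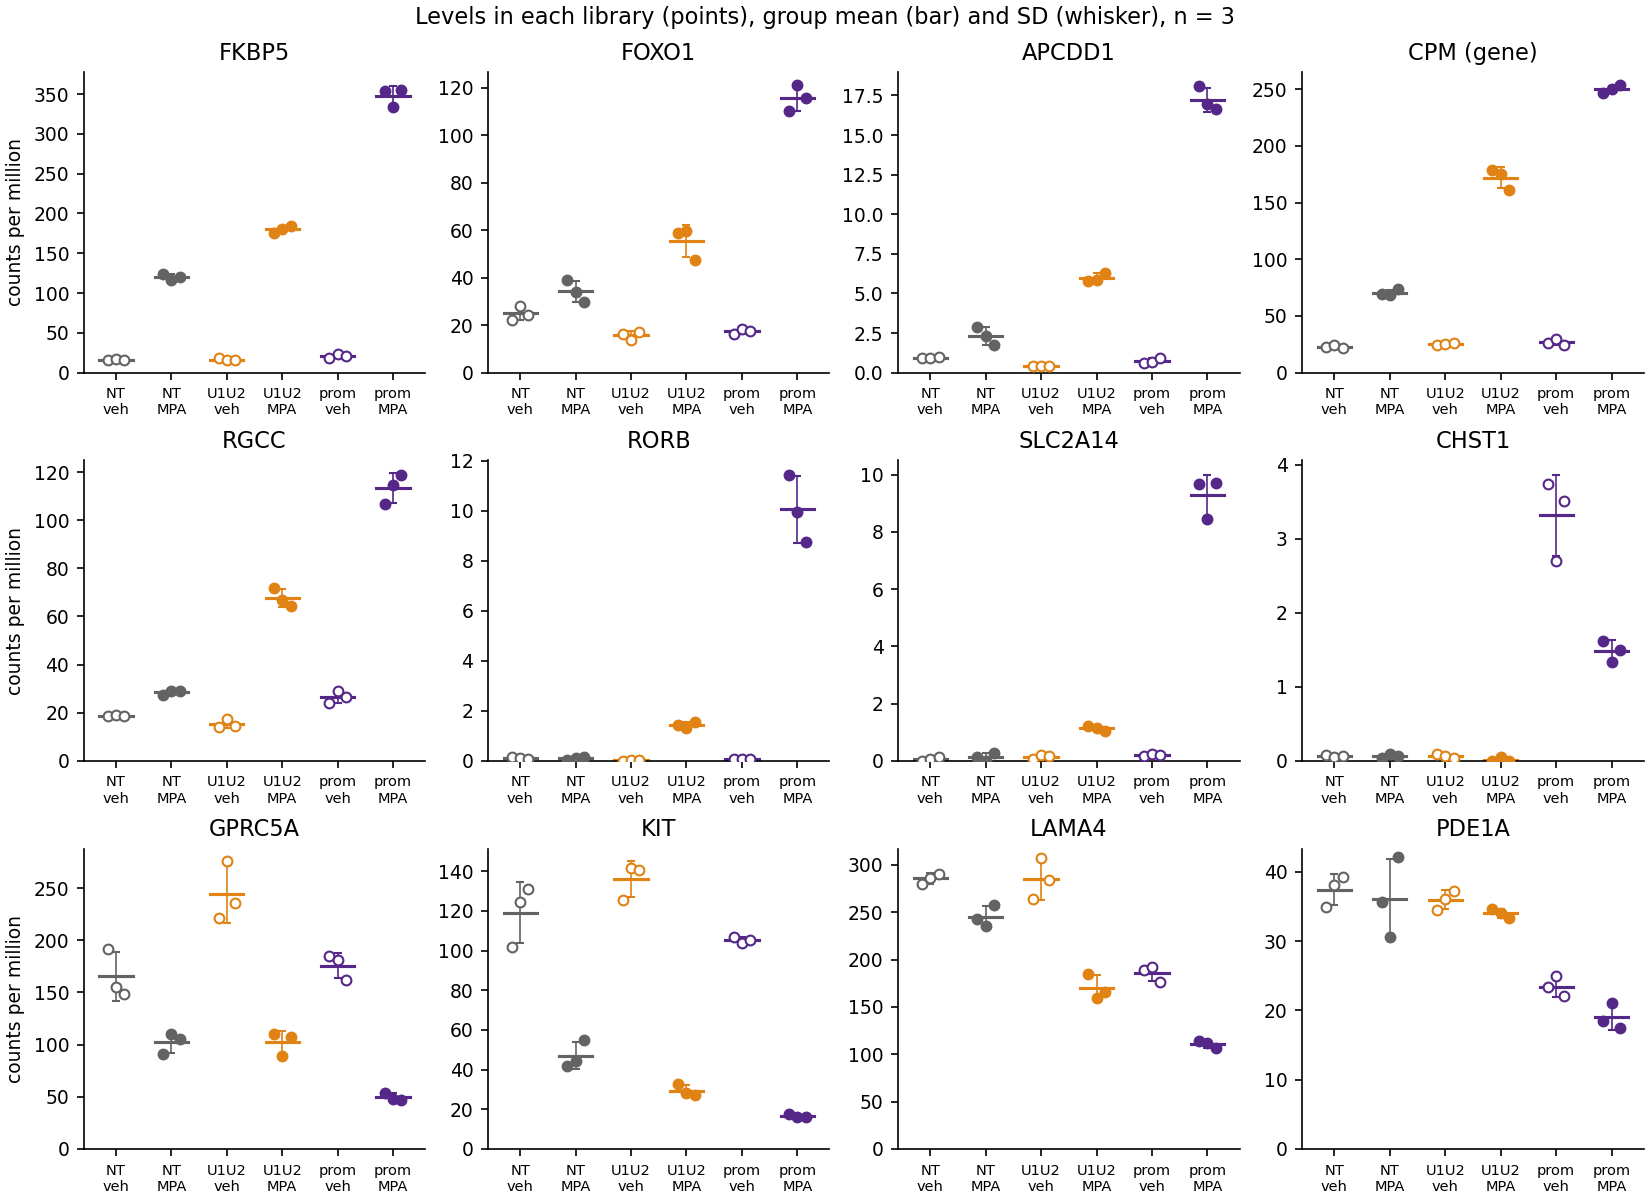
Levels of 12 genes called under MPA in all 18 libraries, as counts-per-million values on a linear axis from 0; open points are vehicle and filled points MPA libraries, bars are group means and whiskers SD (n = 3). In each panel the promoter and U1U2 points under MPA do not overlap; RGCC, CHST1, LAMA4 and PDE1A were also called in vehicle, and none of the 12 was called for a change of its line difference with ligand.

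The other called genes were smaller in effect, low in count, or without a listed group. Higher in promoter cells were CD163L1, a scavenger receptor (0.87 ± 0.15), TCAF2, a partner of TRP channels (1.14 ± 0.21), PID1, a PTB-domain protein (0.69 ± 0.14), TMEM171 (0.69 ± 0.14), CARMIL1, a regulator of actin capping (0.61 ± 0.10), KIF13B, a kinesin (0.52 ± 0.10), PRUNE2 (0.49 ± 0.10), NRIP3 (0.42 ± 0.08) and the long intergenic RNA ENSG00000250126 (1.54 ± 0.23). Lower were C11orf87 (-0.83 ± 0.15), ERICH5 (-0.79 ± 0.16), GPNMB, a membrane glycoprotein (-0.47 ± 0.10), the antisense RNA SBF2-AS1 (-0.45 ± 0.09), GRIP1, a synaptic scaffold (-1.17 ± 0.22), and GPX3, a secreted glutathione peroxidase (-1.54 ± 0.29). Their adjusted p-values ran from 0.00347 for ENSG00000250126 to 0.048 for ERICH5. CD163L1 and CARMIL1 were lost without U1U2 MPA replicate 1 or promoter MPA replicates 2 or 3 (adjusted p up to 0.0956 and 0.101). TMEM171, KIF13B and C11orf87 were called only without U1U2 MPA replicate 3, PID1 only without U1U2 MPA replicate 2 and PRUNE2 only without promoter MPA replicate 1 (adjusted p up to 0.279 in the other fits). TCAF2, NRIP3, ERICH5, GPNMB, SBF2-AS1, GRIP1 and GPX3 were called in none of the 6 (adjusted p 0.0554 to 0.351). The strand setting of the counting is not given in the sources used here, so reads of SBF2-AS1 and of genes across from it cannot be told apart.

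Without ligand the lines also differed, in 122 called genes (0.784%), 82 higher (0.527%) and 40 lower (0.257%) in promoter cells. No library is shared between the vehicle and the MPA comparison, but both tests take their spread from the same fit of all 18 libraries. Of the 51 genes called under MPA, 14 were called in vehicle in the same direction, which is 27.5% of the MPA calls and 11.5% of the vehicle calls. They were CHST1, CD24, HLA-DMA, RGCC, SLC7A2, NRIP3 and PID1, higher in promoter cells, and TRPC6, C11orf87, LAMA4, PDE1A, WNT2, GPNMB and GFRA1, lower. LAMA2 was called in both in opposite directions. All 21 genes lower under MPA had a negative vehicle difference, as did 8 of the 30 genes higher under MPA. Of all tested genes, 51.7% had a positive vehicle difference. Over all 15558 genes the log2 fold changes in vehicle and under MPA had a Pearson r of 0.13 and a Spearman rho of 0.04, given as a description across genes, which are not independent replicates.

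**Figure D3:**
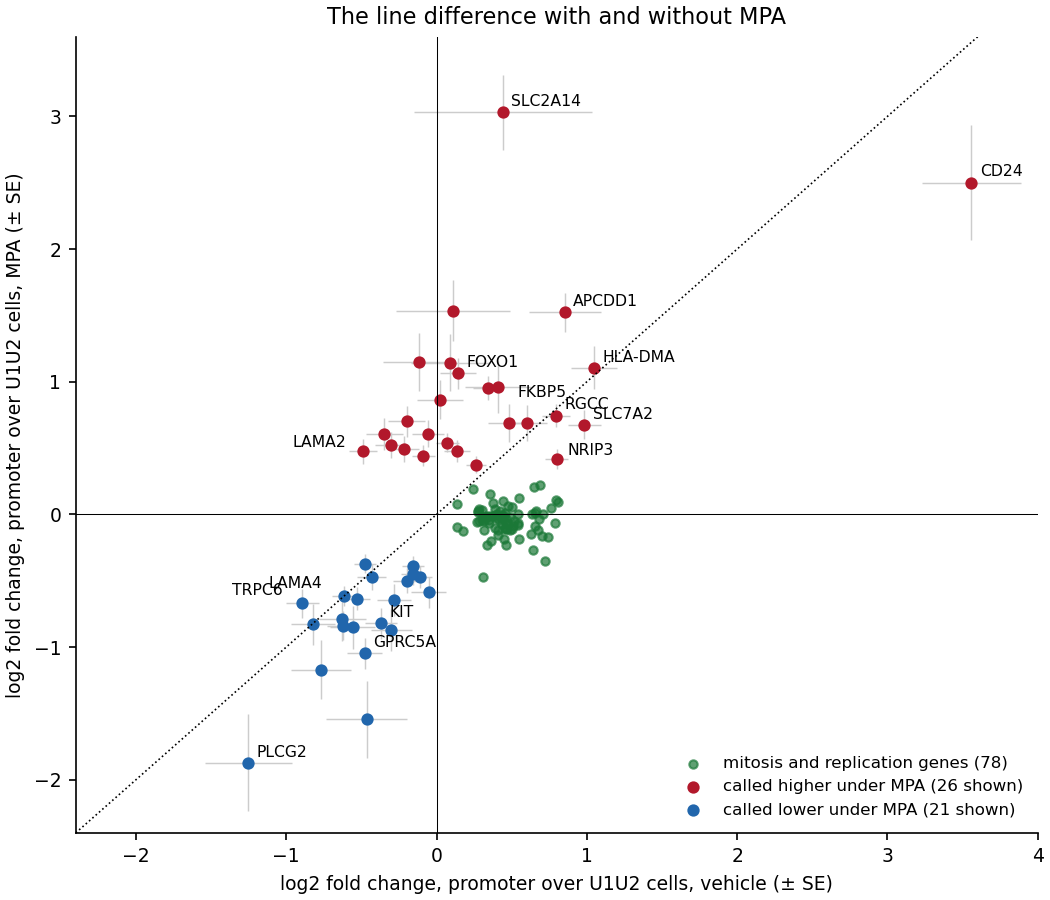
Log2 fold change of promoter over U1U2 cells in vehicle (horizontal) and under MPA (vertical), whiskers SE, for 47 genes called under MPA and 78 mitosis and replication genes; the dotted line marks equal values. CHST1 lies beyond the axes, and RORB, CNR1 and ZBTB16, with under 10 counts in the vehicle libraries of both lines, are left out; mitosis and replication genes lie right of 0 and near the horizontal line at 0.

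The difference of the line differences, MPA minus vehicle, was called for 2 genes (0.0129%), 1 positive and 1 negative (0.00643% each). LAMA2 was 25.6, 23.9 and 23.0 CPM in U1U2 and 17.0, 19.2 and 15.6 CPM in promoter vehicle libraries, below U1U2 cells without ligand (-0.49 ± 0.09, adjusted p = 0.0167) and above them with it. The change of its line difference was 0.96 ± 0.13 (adjusted p = 0.00837). DTL, a substrate receptor of the ubiquitin ligase that clears CDT1 in S phase, was 23.6, 23.6 and 22.8 CPM in U1U2 and 40.04, 39.8 and 36.9 CPM in promoter vehicle libraries (0.74 ± 0.08, adjusted p = 0.000162). Under MPA it stood at 23.6, 23.2 and 23.1 against 19.8, 21.1 and 22.8 CPM (-0.13 ± 0.08, not called), a change of -0.87 ± 0.11 (adjusted p = 0.00837). Both calls were lost without U1U2 MPA replicate 2 or promoter MPA replicate 1 (adjusted p up to 0.051). FOXO1 (0.92 ± 0.17), KIF13B (0.83 ± 0.14) and CDK1 (-0.91 ± 0.16) each missed the threshold at adjusted p = 0.063. FKBP5 stood at 0.61 ± 0.13 (adjusted p = 0.135), so its line difference was not shown to change with ligand.

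Of 34 tested mitosis and spindle genes, 0 were called under MPA (1 at an unadjusted p under 0.05; median -0.06, 6 positive), while 9 were called higher in vehicle (median 0.46, 34 positive). Of 44 tested DNA replication and S-phase genes, 0 were called under MPA (0 at an unadjusted p under 0.05; median -0.02, 19 positive), while 4 were called higher in vehicle (median 0.41, 44 positive). The change of the line difference was negative in all 34 and in all 44, with a median of -0.55 and -0.44, and none of them passed the test singly. Over all tested genes the median of that change was -0.03, and its share of negative values was not counted. Of all tested genes 51.7% were positive and 0.527% called higher in vehicle, and 43.1% were positive under MPA. CDK1, the mitotic kinase, stood at 0.64 ± 0.11 in vehicle (adjusted p = 0.00915) and at -0.27 ± 0.11 under MPA (adjusted p = 0.986). MAD2L1, a spindle checkpoint protein, stood at 0.70 ± 0.12 in vehicle (adjusted p = 0.00915) and at -0.17 ± 0.12 under MPA.

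Genes were then sorted by their response to MPA in NT cells, whose libraries enter neither side of the comparison. They do enter the fit of all 18 libraries that sets the spread, so the 2 sets of calls are not fully independent. MPA changed 922 genes (5.93%) in NT cells, raising 380 (2.44%) and lowering 542 (3.48%). Of the 380 raised genes, 11 were higher and 1 lower in promoter than in U1U2 cells (3.16% called), with a median of 0.03 and 58.4% positive. The 11 included FKBP5, ZBTB16, APCDD1, FOXO1, RGCC, SLC7A2, CPM, PRUNE2, LAMA2 and NRP2, and the 1 was PLCB4. Of the 542 lowered genes, 11 were lower and 1 higher (2.21% called), with a median of -0.09 and 28.0% positive. In vehicle, without ligand, the same lowered genes had a line-difference median of -0.08 with 38.6% positive, and the raised genes -0.03 with 45% positive, against 51.7% positive over all tested genes. The 11 were GPRC5A, FGF9, KIT, ADRA2A, HTR2B, WNT2, SEMA3A, GPNMB, SBF2-AS1, GRIP1 and GFRA1, and the 1 was CD24. Among the 14636 genes not called in NT cells, 18 were higher and 9 lower (0.184% called), and 43.2% were positive. For the 133 genes raised over 2-fold in NT cells the median was 0.13 with 64.7% positive, and for the 168 lowered over 2-fold it was -0.23 with 26.8% positive. Their vehicle values were 0.02 with 52.6% positive and -0.16 with 34.5% positive.

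**Figure D4:**
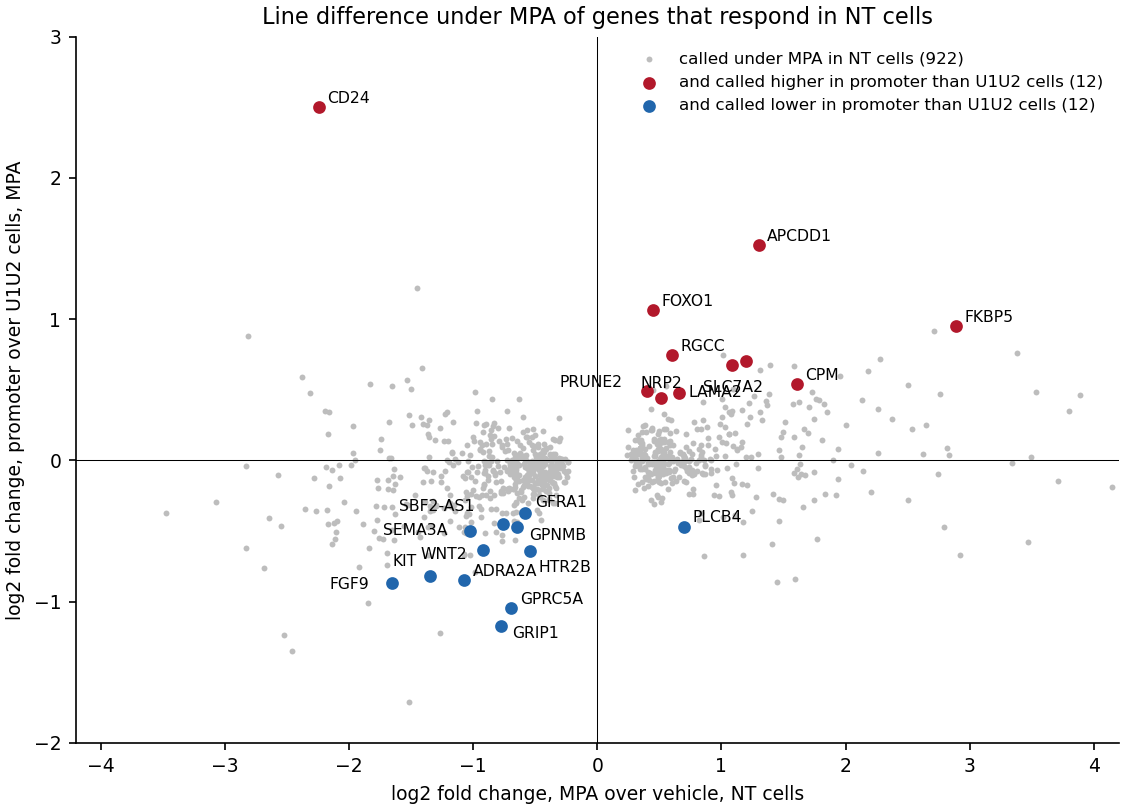
For the 922 genes called under MPA in NT cells, the horizontal axis is the log2 fold change of MPA over vehicle in NT cells and the vertical axis that of promoter over U1U2 cells under MPA. Of the 24 also called between the lines, 22 went the same way on both axes; 4 genes, ZBTB16 among them, lie beyond the axes.

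The order of the 3 lines under MPA is given from group means. The called genes were chosen for a gap between promoter and U1U2 cells, which leaves little room for promoter cells in the middle. The order was not counted over all tested genes, so the counts have no background share beside them. U1U2 cells lay between NT and promoter cells for 23 of the 30 genes higher in promoter cells and for 13 of the 21 lower ones. FKBP5 (120, 180 and 348 CPM in NT, U1U2 and promoter cells), APCDD1 (2.32, 5.99 and 17.2 CPM) and RGCC (28.4, 67.7 and 113 CPM) showed that order, as did KIT in the other direction (46.9, 29.3 and 16.6 CPM). NT cells lay between the other lines for 6 and 7 genes. GPRC5A was of this kind by a small margin, with 102 ± 10.3 CPM in NT cells and 102 ± 11.2 CPM in U1U2 cells (SD, n = 3), which did not differ beyond their spread. The responses of each line to MPA are set side by side, as log2 fold changes over its own vehicle in NT, U1U2 and promoter cells. FKBP5 stood at 2.89, 3.46 and 4.07, and FOXO1 at 0.45, 1.81 and 2.73. For KIT the values were -1.35, -2.21 and -2.67, and for GPRC5A -0.69, -1.26 and -1.83. PLCB4 had 0.70, 1.37 and 1.01, the widest step being in U1U2 cells, and RGCC 0.60, 2.14 and 2.10. These responses and the steps between neighbouring lines share libraries with the main comparison, so they are not independent of it.

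At 0.328% of genes called, a list of this size would hold few calls or none, so a list without a call is no result about its genes. In all, 19 called genes fell in 33 lists of 898 genes, of which 741 were tested. None was called among 39 interferon-stimulated genes (median 0.07, 5 at an unadjusted p under 0.05), 12 cytokines and chemokines (-0.05, 1), 15 NF-kappa-B targets and inhibitors (0.03, 3), 42 BMP and TGF-beta family genes (-0.06, 8), 17 IGF family genes (-0.03, 2) or 14 prostaglandin genes (-0.16, 1). The same held for 32 sterol and fatty acid synthesis genes (-0.07, 1), 32 stress genes of the unfolded protein response (-0.03, 0), 23 p53 targets (-0.08, 0), 28 HOX genes (0.07, 1) and 35 subunits of oxidative phosphorylation (-0.08, 0). Over all tested genes 4.23% had an unadjusted p under 0.05. Of 24 neuronal and synaptic genes none was called either (median -0.01), but 11 had an unadjusted p under 0.05, with log2 fold changes over the list from -0.62 to 0.62. Some lists with a call also held many such genes. They were 9 of 23 decidual markers, 10 of 37 matrix proteases and inhibitors and 8 of 27 angiogenic and vascular genes. Laminins, proteoglycans and matrix glycoproteins had 7 of 43 and WNT genes 6 of 26. The other lists with a call had 1 to 4 each. Of 19 tested steroid receptors, chaperones and coregulators none was called (median -0.03, 0 at an unadjusted p under 0.05); the coactivator NCOA1 stood at 0.15 ± 0.08. Among cell type markers, 0 of 7 epithelial, 2 endothelial, 2 leukocyte and 20 stromal genes that passed the filter were called.

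**Figure D5:**
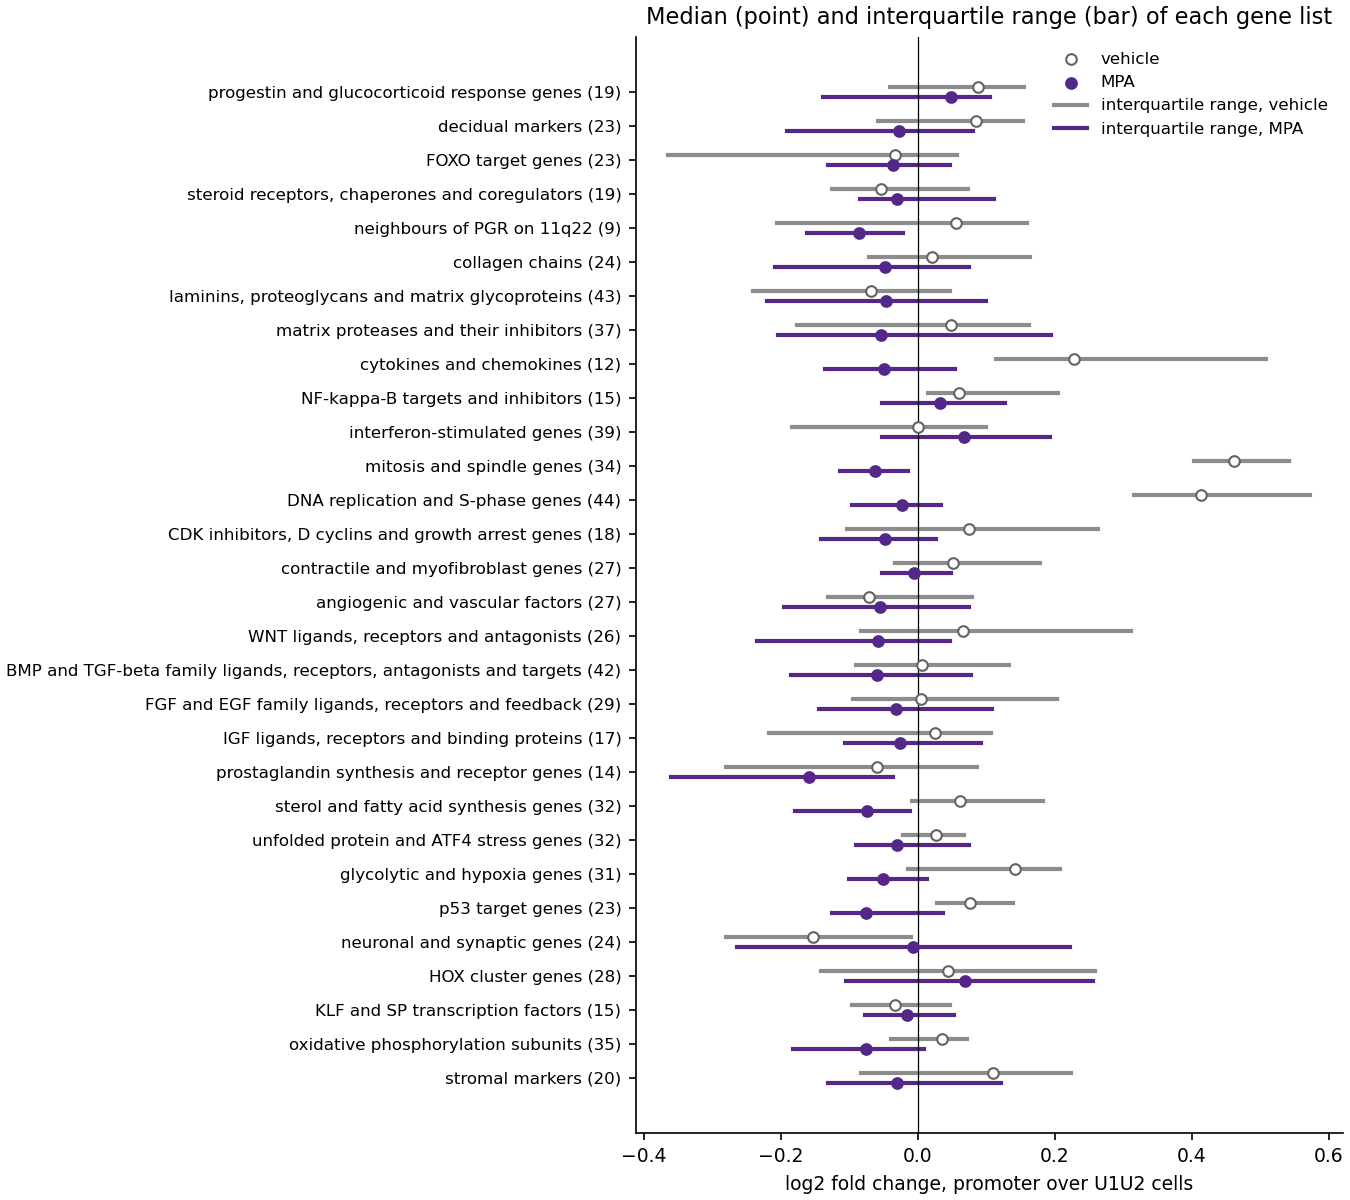
Median (points) and interquartile range (bars) of the log2 fold change of promoter over U1U2 cells in each gene list of at least 9 tested genes, in vehicle (open, grey) and under MPA (filled, purple); the number tested is in parentheses. Medians under MPA lie between -0.16 and 0.07, and the mitosis and replication lists stand to the right in vehicle, at 0.46 and 0.41.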

How the data were processed

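RNA-seq counts per gene of 18 libraries, as deposited by the authors, were whole numbers with no normalization. Reads were aligned with STAR 2.6.0c to hg38, per the submitters' processing notes, which also name edgeR 4.2.2 and R 4.4.1. The annotation, the program that counted reads and its strand setting are not given in the sources used here, while the kit is a stranded mRNA kit per the labels. A table of log2 CPM deposited by the authors lay within rounding of edgeR's log2 CPM (prior count 2) of the counts and entered no test.

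From the counts, edgeR 4.0.16 (R 4.3.3) was fitted to all 18 libraries with 1 term per group, TMM factors and filterByExpr (minimum count 10), which left 15558 genes. Quasi-likelihood tests gave each contrast, with Benjamini-Hochberg adjustment over all tested genes and calls at adjusted p under 0.05. Each SE of a log2 fold change was its absolute value divided by the square root of the test's F statistic. It was thus derived from the test, and the 95% interval of a log2 fold change used this SE and a t quantile. Positions came from GENCODE 29 (GRCh38), matched for 14700 tested genes (94.5%), and promoter windows from RefSeq. Ratios of summed counts carry exact 95% intervals. Total counts ran from 11.9 to 33.4 M, and the scripts were tested on simulated data. The text names up to 15 called genes in each direction with the largest fold changes (no overlap of libraries, no clone-based name, and an average of at least 1 on the log2 CPM scale), list members, genes called for the difference of line differences, genes among the largest vehicle differences that were also called under MPA, and PGR. The other 13 called genes (CHST1, CD24, ENSG00000250126, CARMIL1, SPP1, KIF13B, PRUNE2, NRIP3, GFRA1, SBF2-AS1, GRIP1, GPX3 and PLCG2) were named after their values were seen. The comparison, the lists and the tests were chosen with earlier results of these data known. Alternatives were other size factors, other filters, a fit of the compared groups alone, a replicate block, GC and length offsets, DESeq2 1.42.0, and leaving out each library. Some results are not reported here.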

Additional observations from a re-analysis of the deposited data

Results flagged for a closer look

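For 2 genes the line difference itself differed between MPA and vehicle by the edgeR interaction test over all 15558 genes. For LAMA2, a laminin chain, the promoter over U1U2 difference was higher under MPA by 0.96 ± 0.13 on the log2 scale (adjusted p = 0.00837), and promoter cells lay below U1U2 cells in every vehicle library and above them in every MPA library. For DTL, a replication-linked ubiquitin ligase subunit, it changed by -0.87 ± 0.11 (adjusted p = 0.00837), from 0.74 in vehicle to -0.13 under MPA. Both calls were lost without U1U2 MPA replicate 2 or promoter MPA replicate 1 (adjusted p up to 0.051).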

How the results depend on the processing

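Under MPA the 51 calls (30 higher, 21 lower) became 16 (12 and 4) with only the compared groups in the model, 91 (59 and 32) with offsets for GC and length, and 88 (57 and 31) with DESeq2. Of those, 16, 48 and 49 were among the 51. Leaving out 1 library gave 15 to 40 (10 to 29 higher, 5 to 11 lower), the fewest without promoter MPA replicate 2. In vehicle the 122 calls (82 and 40) became 11 (8 and 3), 278 (180 and 98) and 265 (158 and 107) under the same settings, and 39 to 64 (26 to 46 higher, 13 to 19 lower) without 1 library. The 2 calls for the change of the line difference became 0 (0 and 0) with only the groups, 29 (14 and 15) with offsets, 58 (30 and 28) with DESeq2, 18 (7 and 11) with no filter, 9 (5 and 4) at 1 CPM or more in 3 libraries, and 0 to 3 (0 to 2 higher, 0 to 1 lower) without 1 library. The 922 NT calls became 491 (193 and 298) with only the groups, 1400 (540 and 860) with offsets, and 612 to 972 (240 to 401 higher, 372 to 571 lower) without 1 library. The median of genes raised in NT cells turned to -0.014 with no filter. The median of all tested genes turned to 0 with no filter, 0.00297 with offsets and 0.0065 without U1U2 MPA replicate 3, over a range of -0.0316 to 0.0065 without 1 library. The cause of these shifts was not tested. All 51 genes kept their sign under every setting, and 13 were called under every one.

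Same-numbered replicates of the lines under MPA had deviations correlated at -0.25, 0.12 and -0.17, so the numbers were not taken to pair the libraries. With a replicate block the calls were 25 under MPA (18 and 7), 69 in vehicle (48 and 21) and 0 (0 and 0) for the change of the line difference. Precision is limited for genes of few counts, such as CNR1, CD24 and PLCG2.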
